A study of Mus musculus with 3 samples.

Results

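The AT2 cells of air-exposed mice were described from a single array, as the baseline that the study's smoke groups are set against, without a comparison with smoke. AT2 cells are the cuboidal cells of the alveolus that make surfactant, the film of lipid and protein that lowers surface tension in the airspace. They store it in lamellar bodies, organelles related to lysosomes, and they also secrete proteins of innate defense, move ions and fluid, and renew the alveolar epithelium, giving rise to the flat AT1 cells that carry gas exchange. The air group is 1 of the 3 samples of the series, the others being continuous CS and intermittent CS. Female Sftpc/GFP mice (CBA/Ca × C57BL6J) breathed air over the period in which mice aged 9 to 11 weeks at the start were exposed to smoke. In this line GFP is driven by an Sftpc transgene and is strong in AT2 cells, and it is weak in a few cells where the terminal bronchioles meet the alveolar ducts. Cells high in both EpCAM and GFP were sorted and pooled over 3 mice, and 1 Clariom S array (GeneChip) measured 100 ng of RNA of this pool. With 1 pooled sample there is no replicate, so no value carries an error and no test was possible.

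The array gave 1 log2 value for each of 22206 transcript clusters, the sets of probes assigned to a gene. A gene symbol was found for 19572 clusters, which were ranked by their value, and the first 500 are called the top 500. Of all named clusters these are 2.55%. Values ran between 2.15 and a ceiling of 19.93, with a median of 15.52 in the top 500 and 5.68 over all clusters. As a measure of no signal, the 1414 clusters of olfactory (Olfr) and vomeronasal (Vmn) receptors were taken, genes of the nose. Their 95th percentile, 5.19, is called the background. Of the 18158 named clusters other than receptors, 11086 (61.1%) lay above it and 7072 (38.9%) at or below it. Probe sets differ in how well they bind their target, so the order of the clusters is an order of array signal and not of the number of transcripts per cell. The edges of both classes were not steps in the data. Ssr1, Rpl31-ps12 and Ybx1 were the last inside the top 500, at 14.25 each, and Plxnb2, Ap1g1 and Nsdhl the first outside, at 14.24 each. Loxl3 was the last above the background and Parm1 the first below it, at 5.19 each when rounded.

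**Figure D1:**
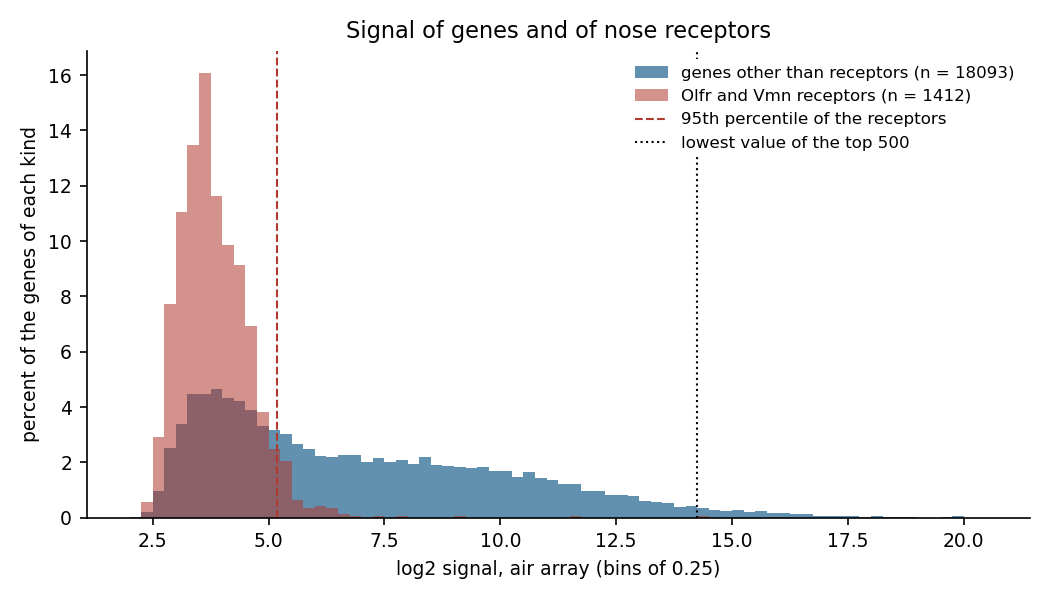
Distribution of the log2 signal on the air array for genes other than receptors (blue) and for Olfr and Vmn receptors (red), as a percentage of the genes of each kind in bins of 0.25, each gene at its highest cluster. The receptors lie in a narrow peak with a 95th percentile of 5.19 (dashed line), and the other genes stretch to 19.93, far past the lowest value of the top 500 (dotted line, 14.25).

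The markers of the labelled cell type were bright. The cells were sorted on GFP driven by an Sftpc transgene, and the lists were chosen with earlier results of these data known. These values are therefore a description and no independent test of cell identity. All 5 defining markers of AT2 cells stood in the top 500. Sftpc, Sftpb and Sftpa1, which encode the surfactant proteins C, B and A, and Slc34a2, the apical phosphate transporter, all read 19.93. Lamp3, a membrane protein of the lamellar body, read 19.85. Across the whole AT2 list, 23 of 26 genes (88.5%) were in the top 500 and all 26 lay above the background, with a median of 18.64. The 3 members outside the top 500 were the fatty acid binding protein gene Fabp5 at 13.60, Ppp1r14c at 10.74 and Bex2 at 9.34.

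The ceiling was shared by 9 clusters, of which 7 were named. Beside the 4 AT2 markers these were Lyz2, a lysozyme that cuts bacterial cell walls, Lcn2, a lipocalin that withholds iron from bacteria, and Cbr2, a carbonyl reductase of the lung. Their order among themselves cannot be read. Promoter sequences from RefSeq (GRCm38.p6) were found for 414 of the 499 genes of the top 500 other than receptors. Sftpc had no entry. The 150 bases before the transcription start are shown for 4 genes at the ceiling, those read that held a run as marked here. Capitals mark runs of 5 or more A or T letters that lie between 40 and 20 bases before the start on the gene's strand, the place of a TATA box, and the letters CAAGTG on either strand (CACTTG in reverse), which occur in sites of the lung factor Nkx2-1.
Sftpa1, chr14:41131638-41131787, plus strand: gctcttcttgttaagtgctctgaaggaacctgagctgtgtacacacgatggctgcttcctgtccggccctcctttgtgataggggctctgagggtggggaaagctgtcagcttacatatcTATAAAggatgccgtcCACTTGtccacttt
Sftpb, chr6:72304460-72304609, plus strand: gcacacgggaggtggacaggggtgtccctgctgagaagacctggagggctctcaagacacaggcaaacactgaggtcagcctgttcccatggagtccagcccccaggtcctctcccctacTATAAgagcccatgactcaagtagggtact
Slc34a2, chr5:53049203-53049352, plus strand: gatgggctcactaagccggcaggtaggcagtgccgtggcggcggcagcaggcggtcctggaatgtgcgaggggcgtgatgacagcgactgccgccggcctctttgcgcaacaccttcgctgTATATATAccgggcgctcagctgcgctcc
Lyz2, chr10:117282273-117282422, minus strand: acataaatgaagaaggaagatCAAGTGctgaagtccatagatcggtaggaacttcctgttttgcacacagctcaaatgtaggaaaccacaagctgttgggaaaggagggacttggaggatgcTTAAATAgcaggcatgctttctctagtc

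A run of this kind was present in each of the 4 sequences, which were shown for that reason. Lcn2 and Cbr2, also at the ceiling, had none in that place and are not shown. Both hold runs of this length farther from the start. A run in the place of a TATA box was found for 10 of the 21 AT2 list genes with a promoter (47.6%). The same held for 10 of the 17 defense genes in the top 500 (58.8%). In the top 500 as a whole the share was 15.2%, against 27.8% of the genes at or below the background, 48.9% of the receptors and 22.3% of all 32851 promoters of the table. The letters CAAGTG were in 5 of the 21 AT2 promoters (23.8%) and in 13% of the top 500, against 13.6% of all promoters. TGTTTAC, which occurs in sites of forkhead factors, was in 4 of the 21 (19%) and in 2.17% of the top 500, against 3.65% of all. The top 500 promoters were richer in G and C (60.9%) than all promoters (53.8%), and so were those of the genes above the background outside the top 500 (60.5%). These matches describe letters in a window and not binding.

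Below the ceiling the brightest genes mixed the products of AT2 cells with genes that most cells use. The stearoyl-CoA desaturase Scd1 read 19.87, the mucin Muc1 of the apical surface 19.83, Ly6e 19.80 and the chemokine Cxcl15 of the lung epithelium 19.76. The translation elongation factor Eef1a1 read 19.68, the club cell secretory protein Scgb1a1 19.61, the elongase Elovl1 19.52 and the lysosomal protease Ctsc 19.52. B2m, the light chain of MHC class I, read 19.50 and Dad1, a subunit of the enzyme that attaches sugars to proteins in the endoplasmic reticulum, 19.31. The signal fell slowly over the ranks, to 17.75 at rank 50, 16.75 at rank 100, 15.84 at rank 200 and 14.25 at rank 500. At rank 1000 it was 12.92.

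**Figure D2:**
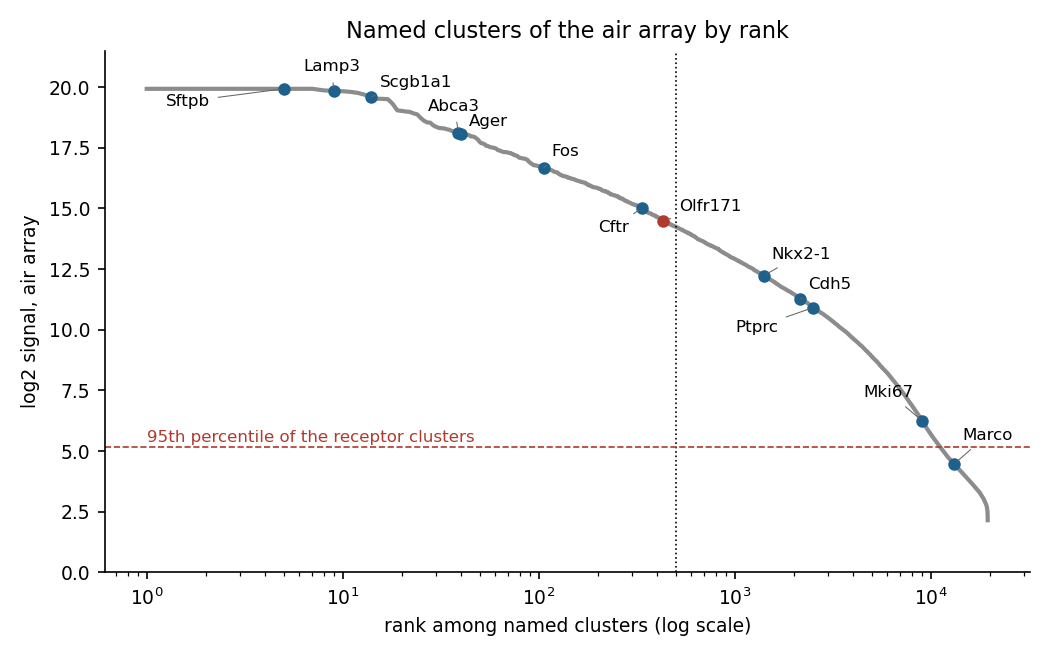
Log2 signal of the named clusters on the air array against their rank (log scale), with named examples as points, the limit of the top 500 (dotted) and the background of 5.19 (dashed). The AT2 genes Sftpb and Lamp3 lie at the upper end, and the macrophage gene Marco at 4.47 lies below the background. The olfactory receptor Olfr171 (red, 14.50) lies within the top 500.

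Surfactant genes were concentrated at the head of the ranking. Of the 30 genes for surfactant proteins, their processing and lamellar bodies, 13 (43.3%) were in the top 500, against 2.55% of all named clusters, and 11 of the 13 were in the first 100. The fourth surfactant protein gene, Sftpd, a collectin of host defense, read 18.54. The aspartyl protease Napsa, which cuts the precursor of surfactant protein B, read 19.04 and Abca3, the transporter that loads phospholipid into lamellar bodies, 18.12. Lpcat1, which makes dipalmitoyl phosphatidylcholine, the main surfactant lipid, read 17.33. Of the HPS genes, whose products help to sort cargo to organelles of this family, Hps6 at 4.51 and Hps1 at 3.65 were the faintest of the list, and Hps3 at 4.76 was also below the background. These 3 were the group's only members at or below the background, out of 30.

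Lysosomal genes were broadly above the background. Of 77 genes for lysosomal proteins and the vacuolar ATPase, the proton pump that acidifies these organelles, 15 (19.5%) were in the top 500 and 72 (93.5%) above the background, against 61.1% of all named clusters other than receptors. Lamp3, Ctsc and Napsa led, followed by the membrane protein Lamp2 at 17.29. The faintest of the lysosomal list were Manba at 4.77 and Arsa, the sulfatase of sulfatides, at 4.66. Among 23 genes of the vacuolar ATPase, 2 were in the top 500, Atp6v0a1 at 16.17 and Atp6v1b2 at 14.41. Atp6v1c2 at 13.35 and Atp6v0d1 at 12.59 followed. The subunit Atp6v1b1, known from kidney and inner ear, read 4.07.

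Genes of lipid metabolism spanned nearly the whole range of signal, between 2.92 and 19.87. Of 124 lipid genes, 111 (89.5%) lay above the background, against 61.1% of all named clusters other than receptors. In the top 500 were 18 (14.5%), against 2.55% of all named clusters. Fatty acid and glycerolipid synthesis supplied 11 of its 31 genes, with Scd1 and Elovl1, then Fasn, the fatty acid synthase, at 17.39 and the acyl-CoA synthetase Acsl4 at 17.32. At the other end of that list Elovl6 read 3.47 and Elovl3 3.05, both below the background. Of 22 genes of phosphatidylcholine and phosphatidylglycerol synthesis, Lpcat1 and Lpcat3 (15.54) were in the top 500 and 19 lay above the background. The phospholipase Pla2g1b read 13.67. The rate-limiting enzyme of phosphatidylcholine synthesis is encoded by 2 genes, of which Pcyt1a read 12.10 and Pcyt1b 2.92.

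All 26 cholesterol genes lay above the background, and 3 of them were in the top 500. The regulator of sterol synthesis Srebf2 read 15.46, the HMG-CoA synthase Hmgcs1 14.93 and the sterol sensor Insig1 14.73. The mevalonate kinase gene Mvk was the faintest, at 6.21. Among 46 genes of lipid droplets, uptake and oxidation, 2 (4.35%) were in the top 500, the fatty acid receptor Cd36 at 16.69 and the lipase Pnpla2 at 15.01. Their median, 8.79, was the lowest of the 4 lipid lists, and fatty acid synthesis had the highest at 13.16. The droplet protein Cidea, known from brown fat, read 3.54 and Plin4 4.20.

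Defense genes were the most frequent of the 6 groups in the first 100 ranks. Of 88 genes of innate defense and antigen presentation, 22 (25%) were in the top 500, against 2.55% of all named clusters. Of these 22, 14 were in the first 100. Sftpa1, Lyz2 and Lcn2 stood at the ceiling, and the chitinase-like Chil1 read 18.88. The antimicrobial peptide gene Camp at 3.74 and Dmbt1 at 3.80 were the faintest of the 9 innate defense genes, out of 59, that lay at or below the background. All 18 genes of MHC class I and peptide loading were above the background, with H2-K1 at 18.16 and H2-D1 at 14.45 after B2m. All 11 genes of MHC class II, which presents peptides to helper T cells and which AT2 cells are known to carry, were above it too. H2-Ab1 read 18.03, H2-Aa 17.97, H2-DMb1 16.78 and H2-Eb1 15.50. Genes of leukocytes were also measured in this pool, with values given below, and their part in the MHC class II values was not tested.

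**Figure D3:**
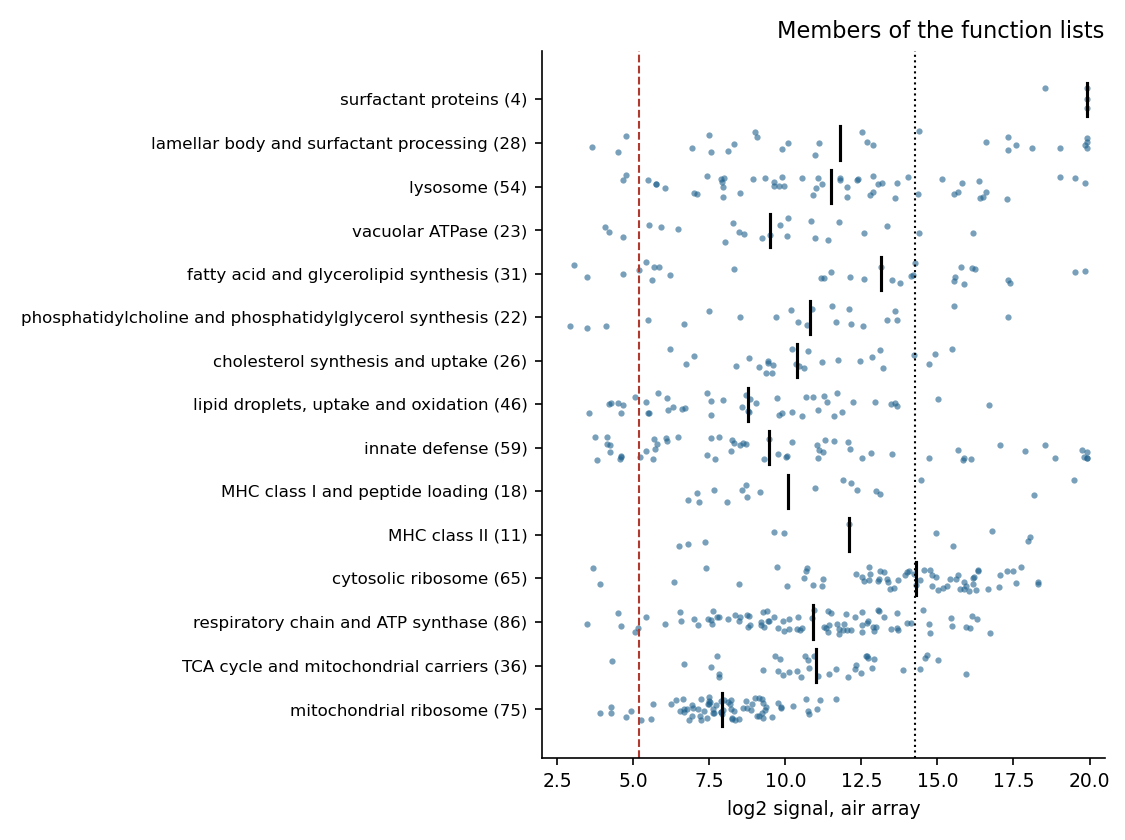
Log2 signal on the air array of each gene (point) of 15 function lists, with the list's median (bar), the background (dashed, 5.19) and the lowest value of the top 500 (dotted, 14.25). Numbers in parentheses are genes. The 4 surfactant proteins lie between 18.54 and 19.93, the cytosolic ribosome has a median of 14.28, and the mitochondrial ribosome lies wholly below the top 500, up to 11.66.

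Cytosolic ribosomal proteins had the highest share in the top 500 among the 6 groups, with 33 of 65 genes (50.8%) and a median of 14.28. Over all named clusters the share was 2.55%. Rps23 read 18.32, Rpl21 18.31, Rps6 17.75 and Rpl41 17.58. The faintest, Rpl39l at 3.90 and Rpl3l at 3.66, are variants known from testis and from muscle, and these were the 2 of the list below the background. The mitochondrial ribosome stood apart, with 0 of 75 genes in the top 500 and a median of 7.92, although 70 (93.3%) lay above the background. Its brightest members were Mrpl42 at 11.66, Mrpl20 at 11.14, Mrpl48 at 11.03 and Mrpl57 at 10.79. Both sets of genes encode ribosomal proteins, and the ranges of their signals overlapped between 3.91 and 11.66.

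Genes for ribosomal proteins are known to start transcription in a pyrimidine tract. The starts of 5 genes from the top 500 are shown, chosen among those with a run as marked here. Each line holds the 20 bases before the annotated RefSeq start and the first 10 of the transcript, with capitals for a run of 8 or more C or T letters on the gene's strand that comes within 10 bases of the start, as far as it falls inside the window.
Rps6, chr4:86857358-86857387, minus strand: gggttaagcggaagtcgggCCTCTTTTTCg
Rpl28, chr7:4792945-4792974, plus strand: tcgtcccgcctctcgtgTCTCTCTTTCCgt
Rpl14, chr9:120571497-120571526, plus strand: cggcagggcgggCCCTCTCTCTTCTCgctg
Rpl15, chr14:18270977-18271006, minus strand: ggattgtgggagaaagCCTTCTTCCTTTCC
Rpl4, chr9:64173367-64173396, plus strand: agTCTTTCCTTTTCCTgtgggagcagccgg

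In Rpl4 the run ends before the annotated start. Such a run was present for 10 of the 25 ribosomal genes of the top 500 with a promoter (40%). Among those without it were Rps23 at rank 31 and Rpl41 at rank 54. A run was present in 16.2% of the top 500, and in 14% of all 32851 promoters. CCGGAAGT, which occurs in sites of ETS factors, was in 8 of the 25 (32%) on either strand. It was in 6.04% of the top 500, 8.41% of the genes above the background outside the top 500 and 3.89% of all promoters. Its reverse complement holds a short pyrimidine stretch, so a match and a run can share letters. CCAAT was in 13 of the 17 lipid genes of the top 500 with a promoter (76.5%) and in 37.9% of the top 500, against 37.4% of all promoters. Defense genes of the top 500 had it in 11 of 17 promoters (64.7%), and the remaining groups in between 0% (surfactant) and 45.5% (mitochondria).

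Of 197 mitochondrial genes, including the 75 of the mitochondrial ribosome, 15 (7.61%) were in the top 500, against 2.55% of all named clusters. None of the 15 was in the first 100 ranks, and 186 of the 197 (94.4%) lay above the background. The respiratory chain and ATP synthase supplied 10 of its 86 genes (11.6%), led by the cytochrome oxidase subunit Cox7c at 16.71, the ATP synthase subunits Atp5a1 at 16.30 and Atp5b at 16.06, and Uqcrb of complex III at 16.15. Several subunits exist in forms known from other tissues, and these lay on both sides of the background. The list had 5 genes at or below it, of which Cox8b at 3.48 and Cox7b2 at 4.49 were the faintest. Cox6a2 at 13.06, Cox6b2 at 6.99 and Cox8c at 6.03 were above it. Of 36 genes of the TCA cycle and mitochondrial carriers, 5 (13.9%) were in the top 500. These were the adenine nucleotide carrier Slc25a5 at 15.94, the porin Vdac2 at 15.02, the phosphate carrier Slc25a3 at 14.66, Chchd10 at 14.61 and Ogdh at 14.43.

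**Figure D4:**
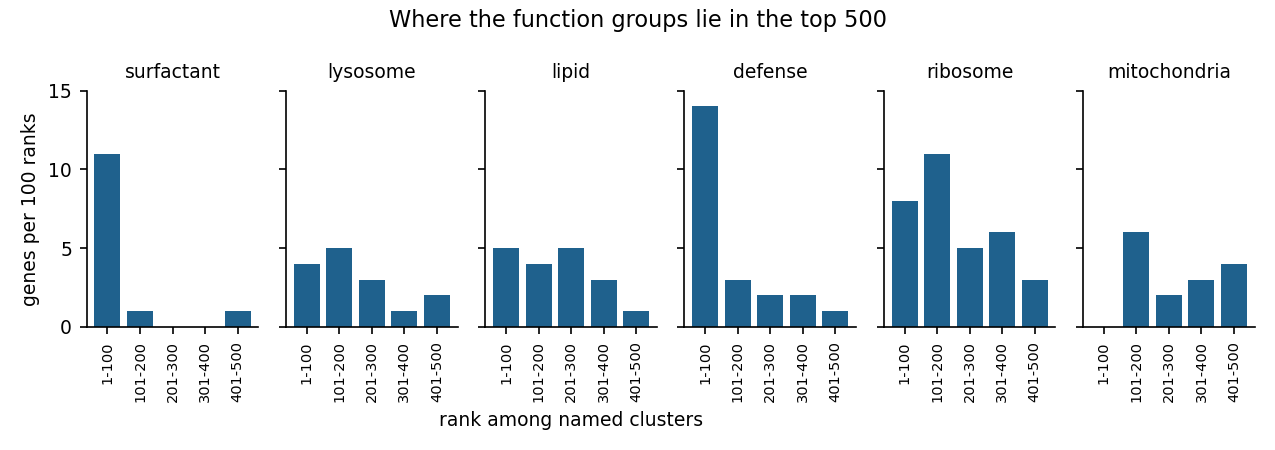
Number of genes of each of the 6 function groups per 100 ranks of the top 500 on the air array. Surfactant genes (11) and defense genes (14) fall mainly in the first 100 ranks, ribosomal genes are spread with a maximum of 11 in ranks 101 to 200, and mitochondrial genes begin after rank 100.

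The 6 groups accounted for 110 of the top 500. A further 93 stood in another function list, 15 only in a list of cell type markers and 282 in none. Among the other functions the cytoskeleton stood high, with 19 of 40 genes (47.5%) in the top 500, against 2.55% of all named clusters. These included Actb at 19.00, Tmsb4x at 18.92, S100a11 at 17.97 and Myl12b at 16.50. Genes of the endoplasmic reticulum and secretion had 14 of 48 (29.2%), among them the chaperones Calr at 16.75, Hsp90b1 at 16.62 and Hspa5 at 16.61, and all 48 lay above the background. Antioxidant genes had 10 of 48 (20.8%), with Cbr2, catalase (Cat) at 18.03, Mgst1 at 17.40 and the glutathione-synthesizing Gclc at 16.49. In the same list Cyp1a1, a monooxygenase induced through the aryl hydrocarbon receptor, read 3.16, below the background. Of 14 genes of iron storage and trafficking, 4 were in the top 500, with Lcn2, the ferritin chains Fth1 at 19.02 and Ftl1 at 16.33, and transferrin (Trf) at 15.81.

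Junction and transport genes of the alveolar epithelium were also among the brightest. The tight junction gene Cldn18, whose product seals the alveolar epithelium, read 18.73, Cd81 18.30 and the cadherin Cdh1 17.95, and 42 of 46 junction genes lay above the background. Epcam, the surface protein used for the sort, read 11.65. In ion and water transport 7 of 34 genes (20.6%) were in the top 500, against 2.55% of all named clusters. After Slc34a2 these included the sodium pump subunit Atp1b1 at 17.11, the zinc and manganese carrier Slc39a8 at 17.09 and the anion transporter Slc26a9 at 16.99. Scnn1a, the alpha subunit of the epithelial sodium channel, read 15.24 and the chloride channel Cftr 15.02. The water channel Aqp4 at 3.90 was below the background.

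Immediate early genes, which cells induce within minutes of many stimuli, were bright. Of 30, 7 (23.3%) were in the top 500, against 2.55% of all named clusters. Above the background lay 29 (96.7%), against 61.1% of those other than receptors. The phosphatase Dusp1 read 18.61, the transcription factor Egr1 17.09, Fos 16.68 and the RNA-binding Zfp36 15.89. The exception below the background was Dusp2 at 2.90. The lungs were minced and digested with enzymes before the sort, and the part of this handling in these values was not tested.

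Among genes in none of the lists, Serinc3 at 18.98, the adhesion molecule Alcam at 18.42, the selenium carrier Selenop at 18.36 and the transcriptional regulator Cited2 at 18.24 were the brightest. The serotonin receptor Htr1b stood at rank 38 with 18.16, next to Tmem176b at 18.20 and Tsc22d1 at 18.07. Clu, a secreted chaperone, read 17.64, the thioredoxin-binding Txnip 17.45, the amyloid precursor App 17.25 and Lgi3, a secreted leucine-rich protein, 17.24. The late endosomal GTPase Rab7 read 17.19.

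Transcription factors of the lung epithelium were mostly above the background. Of 48, 8 (16.7%) were in the top 500, against 2.55% of all named clusters. Above the background lay 41 (85.4%), against 61.1% of those other than receptors. Etv5, an ETS factor that maintains AT2 cells, was the brightest at 18.55, followed by Foxp1 at 16.57, Id2 at 15.81 and the Iroquois factors Irx2 at 15.41 and Irx3 at 15.36. Of the factors known to drive surfactant genes, Cebpa read 13.38, Nkx2-1 12.23, Foxa2 11.92 and Gata6 9.74. Etv4, a close relative of Etv5, at 3.43, was below the background, as were Sox9 (4.22), a factor of the distal lung tip, and Sox2 (3.86) and Trp63 (4.68), factors of the airway and of basal cells. Hopx, known from AT1 cells, read 9.62, and the partners of the Hippo pathway Yap1 and Wwtr1 read 9.71 and 9.36.

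Receptors for growth factors known to act on AT2 cells were present. Fgfr2 read 15.52, the hepatocyte growth factor receptor Met 15.19 and Bmpr2 15.07. These were among 6 of 70 signaling genes (8.57%) in the top 500, against 2.55% of all named clusters. The others were Bmp4 at 14.80, Vegfa at 14.52 and Il6st, the shared receptor of the interleukin-6 family, at 14.41. Other members of the same families lay on both sides of the background. Bmpr1a at 10.22 and Fgfr3 at 9.53 were above it, and Fgfr1 at 3.77, Fgfr4 at 4.48 and Bmpr1b at 3.21 below it. Axin2, a target and brake of Wnt signaling known from a subset of AT2 cells, read 8.29. Of 36 cell cycle genes 23 lay above the background (63.9%), near the 61.1% of all named clusters other than receptors. Ccnd3 at 14.81, Pcna at 14.01 and the inhibitor Cdkn1a at 13.36 were the brightest. The proliferation marker Mki67 read 6.24, and Top2a (5.07), Aurkb (5.02) and Cdk1 (2.62) lay below the background.

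Markers of other lung cells were read next, since the pool was sorted and not single cells. In such a pool a small number of cells of another type and a low level in every AT2 cell cannot be told apart. Of 309 genes from the lists of other lung cell types that stand in no AT2 or function list, 12 (3.88%) were in the top 500. Over all named clusters this share was 2.55%. Of the same 309 genes, 178 (57.6%) lay above the background. Of the 69 defining markers of those types, 38 (55.1%) lay above the background. Both shares above the background were below the 61.1% of all named clusters other than receptors. Of 15 defining markers of liver, muscle, skin, gut and testis, 2 (13.3%) lay above it, Alb at 6.21 and Vil1 at 6.32. The whole lists of these organs had between 7.14% (testis) and 38.9% (muscle) of their genes above it, and the muscle list held Myh7 at 11.83 and the liver list Trf at 15.81.

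Of these 12 genes, 6 came from the lists of AT1 and club cells, the epithelial neighbors of AT2 cells. Scgb1a1, the defining secretory protein of club cells, stood at rank 14 with 19.61, and Ager, the defining receptor of AT1 cells, at rank 40 with 18.08. From AT1 cells came also Gprc5a at 17.68, Emp2 at 15.21 and Clic5 at 14.92, and from club cells Nupr1 at 15.16. The others were the histidine decarboxylase Hdc (17.05), the syndecan Sdc1 (16.63), the apolipoprotein Apoe (16.62), the matrix protein Npnt (16.35), the protease inhibitor Cst3 (14.84) and the adhesion molecule Icam1 (14.52), taken from lists of mast cells and neutrophils, plasma cells, monocytes, fibroblasts, dendritic cells and basal cells. None of these 6 is a defining marker.

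**Figure D5:**
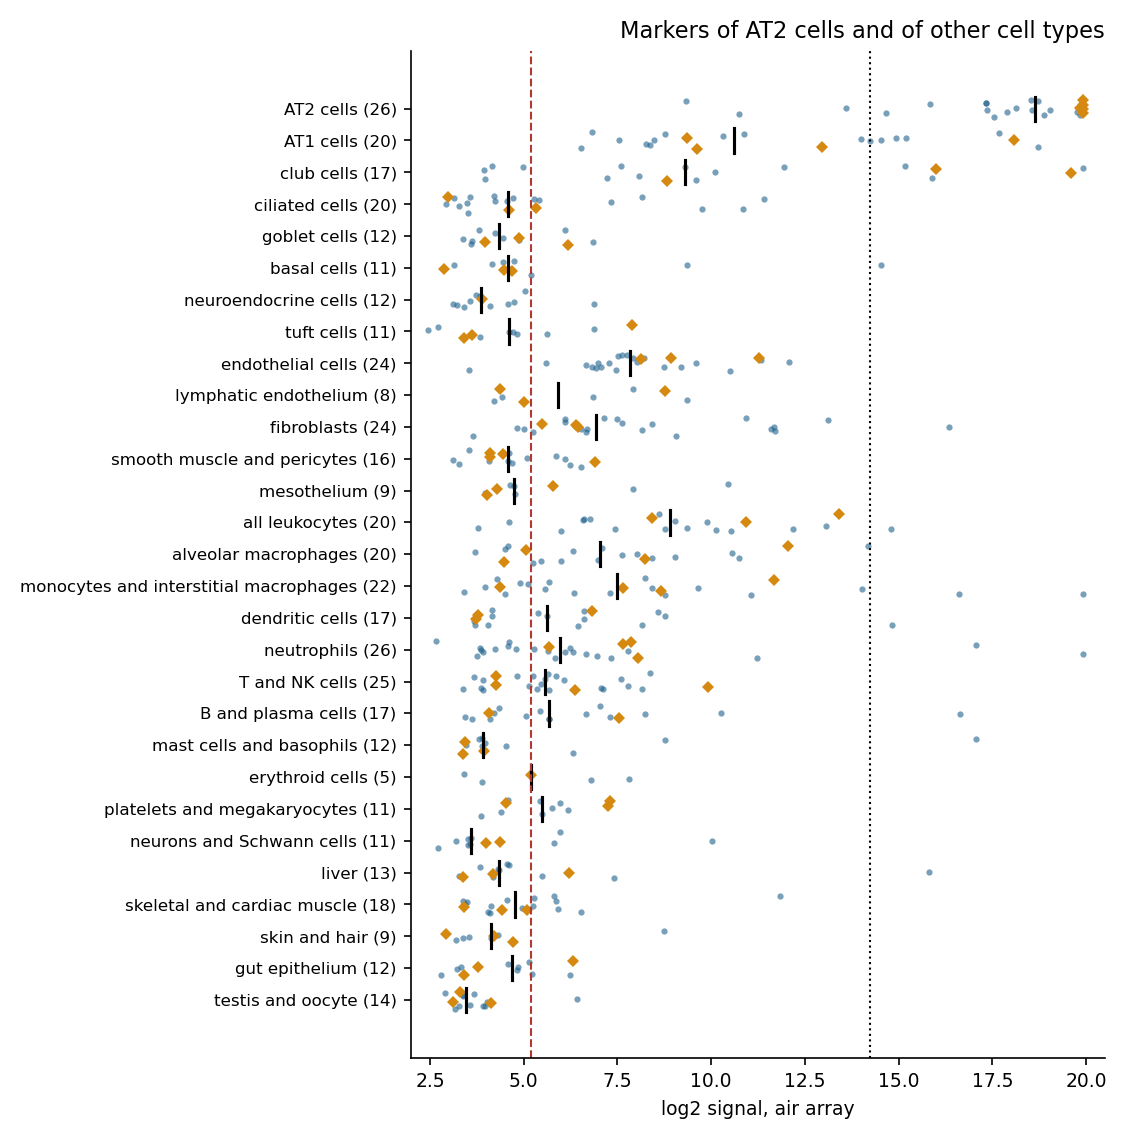
Log2 signal on the air array of the genes in lists of AT2 cells, other lung cell types and other organs, with defining markers as orange diamonds, other markers as blue points and the median as a bar. The dashed line is the background (5.19), the dotted line the lowest value of the top 500 (14.25). The AT2 genes reach down to 9.34, the endothelial and leukocyte lists have medians of 7.84 and 8.89, and the lists of testis, neurons and skin lie mainly below the background.

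AT1 cells had all 20 listed genes above the background, with a median of 10.60. After Ager, the defining Aqp5, a water channel, read 12.96, Hopx 9.62 and Pdpn, podoplanin, 9.36. Club cells had 13 of 17 genes above it and 5 (29.4%) in the top 500, against 2.55% of all named clusters. Beside Scgb1a1 the monooxygenase Cyp2f2 read 15.99 and Scgb3a2 8.81, and of the other markers Cbr2 read 19.93 and Hp 15.88. Cyp2f2, Cbr2 and Hp also stand in function lists and were therefore not among the 12 genes named before. The defining markers of club cells spanned the top 500 and the middle of the range. Fewer genes of the other airway cells were above the background, where 61.1% of all named clusters other than receptors lay. Ciliated cells had 8 of 20 genes above the background, goblet cells 3 of 12, basal cells 3 of 11, tuft cells 3 of 11 and neuroendocrine cells 1 of 12. In the ciliated list the tubulin Tubb4b read 11.40, Tppp3 10.84 and Cfap126 9.75, and in the tuft list the defining Dclk1 read 7.90 and Trpm5 3.63. The ciliary motor gene Dnah5 read 4.59 and Tekt1 2.99, the mucins Muc5b 4.87 and Muc5ac 3.96, the basal keratins Krt14 4.46 and Krt5 2.86, and chromogranin A (Chga) 3.88. Ccdc39 of cilia, at 5.33, and Spdef of goblet cells, at 6.17, were above the background.

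Endothelial genes were present almost throughout. Of 24, 23 (95.8%) lay above the background, against 61.1% of all named clusters other than receptors. Their median was 7.84, and none was in the top 500. The peptide receptor subunit Calcrl read 12.06, endoglin (Eng) 11.34, the endothelial cadherin Cdh5 11.28 and Esam 10.49. Pecam1 read 8.93 and Cldn5 8.13. Sox17, at 3.54, was the exception. In lymphatic endothelium Lyve1 read 8.76, while the defining factor Prox1 at 4.36 and the receptor Flt4 were below the background. Their part in the other values of the pool was not tested.

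Genes of the list for leukocytes as a whole were also widely present, with 18 of 20 (90%) above the background and a median of 8.89. The actin bundler Lcp1 read 14.79, the lysosomal Laptm5 13.42, the transcription factor Spi1 13.06, Srgn 12.18 and Ptprc, which encodes CD45, 10.92. Lcp1 was in the top 500. Of the defining markers of alveolar macrophages, Chil3 read 12.05 and Mrc1 8.25, while Siglecf at 5.05 and the scavenger receptor Marco at 4.47 lay below the background. Of those of monocytes and interstitial macrophages, Ly6c2 read 11.69, Csf1r 8.66 and Ccr2 7.66, and the complement gene C1qa 4.37. Of 26 neutrophil genes 17 (65.4%) lay above the background and 9 below it, near the 61.1% above it over all named clusters other than receptors. The defining S100a9 (8.03), Csf3r (7.87), S100a8 (7.64) and Cxcr2 (5.67) were above it, and the granule genes Elane (4.61), Ngp (3.83) and Camp (3.74) below.

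Lymphoid markers were divided. The T cell receptor chain Cd3e read 9.90 and Cd3d 6.36, while the NK cell genes Ncr1 and Nkg7 read 4.27 and 4.26. In B cells Cd79a read 7.53 and Ms4a1, which encodes CD20, 4.07. Mast cells and basophils had 3 of 12 genes (25%) above the background, against 61.1% of all named clusters other than receptors. Their defining Ms4a2 (3.94), Mcpt8 (3.42) and Cpa3 (3.37) were all below the background, although Hdc, a gene of the same list, was in the top 500. Dendritic cells had Xcr1 at 6.83 above the background, and Zbtb46 (3.77) and Flt3 (3.72) below it.

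Fibroblasts had 21 of 24 genes (87.5%) above the background with a median of 6.92, against 61.1% of all named clusters other than receptors. After Npnt, vimentin (Vim) read 13.11 and Plin2 11.71, whereas the collagen genes that define the list were near the background, with Col3a1 at 6.45, Col1a1 at 6.40 and Col1a2 at 5.50. Smooth muscle and pericytes had 5 of 16 genes (31.2%) above the background. Acta2, smooth muscle actin, read 6.90, and Myh11 (4.45), Cspg4 (4.11) and Des (4.10) lay below the background. In mesothelium Upk3b read 5.79, and Msln (4.29) and Wt1 (4.01) lay below. The Y-linked genes Eif2s3y (2.97), Kdm5d (2.95) and Uty (3.74) were below the background in this pool of female mice.

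Among the receptors that set the background, 71 of 1414 lay above it by construction. One was in the top 500, the olfactory receptor Olfr171 at 14.50, and after it came Olfr170 at 11.73, Vmn2r29 at 9.14 and Olfr169 at 7.79. In the gene order of RefSeq (GRCm38.p6) Olfr169, Olfr170 and Olfr171 follow each other and Lamp3 (19.85) comes next. The 5 olfactory receptors on the far side of the same row, Olfr164 to Olfr168, read between 2.87 and 4.18. On the other side of Lamp3, B3gnt5 read 9.57 and A930003A15Rik 4.30. These neighbors were picked after their values had been seen. Vmn2r29 is followed in the same order by Clcn4 at 9.19.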

How the data were processed

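Total RNA (100 ng) of AT2 cells pooled from 3 air-exposed mice was labeled with the WT PLUS kit and hybridized to 1 Clariom S array. Per the submitters' processing notes, scans were read into the Transcriptome Analysis Console. The log2 values that the authors deposited were used unscaled. The software version, summarization, normalization and genome build were not given in the sources used here. With 1 pooled array there is no replicate, so the precision of a value is not known. The continuous CS and intermittent CS arrays were not compared.

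Symbols came from the platform annotation through RefSeq (GRCm38.p6), which changed 0 of them, and 2634 clusters had none. A gene with several clusters (55 symbols) was read from the highest. Ranks, counts and medians were computed in Python 3.11.15 with pandas 2.3.3, numpy 2.4.6 and matplotlib 3.10.9. The ranking and the background were tested on simulated data. Promoters were taken from the first RefSeq entry of a gene, 250 bases before and 50 after the start.

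The members and lists were chosen with earlier results of these data known. The genes named were drawn from the 40 brightest, the 4 brightest and 2 faintest of each function list, any regulator, the defining markers and 3 brightest others of each cell type, the 20 brightest in no list, and 3 on each side of each limit. Further genes, the gene families and the motifs were chosen after their values were seen, and 2 misplaced genes were then taken out of the lists. Alternatives were other ways to rank, the top 1000, the lowest cluster of a gene, the 99th percentile or the median of the receptors, and Olfr or Vmn clusters alone.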

Additional observations from a re-analysis of the deposited data

Results flagged for a closer look

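Clusters without a gene symbol were not ranked. Of these 2634 clusters, 99 lay at or above the lowest value of the top 500 and 1235 (46.9%) above the background, and 2 stood at the ceiling of 19.93. They were singled out because they carry signal outside the ranking, above the level of the receptors that serve as the control.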

How the results depend on the processing

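Of 48 alternative values, 43 differed from the reported one by less than 1.5-fold for a count or less than the SD of the receptor clusters (0.83) for the background. Among these 43, the counts in the top 500 read from the lowest cluster could not differ. The reason is that 0 symbols had clusters both in and out of the top 500. With the top 1000 in place of the top 500, lipid genes numbered 32 in place of 18 and mitochondrial genes 26 in place of 15. The background was 6.17 with the 99th percentile and 3.72 with the median of the receptors, against 5.19. At these levels 9184 and 15332 named clusters other than receptors lay above the background, against 11086, and both counts were within the 1.5-fold limit. With the median, 62 in place of 38 defining markers of other cell types lay above it. No paired analysis was possible because each exposure has 1 array. The signal ends at a ceiling that 9 clusters share, and 120 of the top 500 lay within 0.5 of its lowest value, with 145 clusters as close below it. Of the 55 symbols with several clusters, 26 had clusters more than 1 apart on the log2 scale, and 13 of the 32 whose highest cluster lay above the background had another that did not.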

Other observations

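Gene families, some of whose members also stand in the lists, differed in how many genes lay above the background. Over all named clusters other than receptors the share was 61.1%. Of 47 keratin genes 9 lay above it, led by Krt7 at 14.23, Krt8 at 12.27 and Krt18 at 12.15, the keratins of simple epithelia. Among 24 claudins Cldn18 read 18.73 and Cldn3 14.48, and 10 lay above the background. Of 90 cytochrome P450 genes 23 (25.6%) did, with Cyp2f2 at 15.99 and Cyp2b10 at 13.69. Secretoglobins had 11 of 26 above it, and after Scgb1a1 the next were Scgb1c1 at 9.73 and Scgb3a2 at 8.81. Heterogeneous nuclear ribonucleoproteins, which bind nascent RNA, were above it in all 19 cases, led by Hnrnpk at 17.52. Rab GTPases had 47 of 55 above it (85.5%), tetraspanins 22 of 26 (84.6%) and annexins 10 of 12 (83.3%).

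Families of secreted ligands were unlike each other in this count. Of 19 Wnt genes only Wnt5a lay above the background, at 5.29, and of 21 FGF genes 4 did, with Fgf1 at 13.49 far ahead of Fgf22 at 7.32. Among 32 interleukin genes the alarmin Il33 read 15.85 and Il1b 11.24, and 11 lay above the background. Of 36 chemokine genes 25 (69.4%) did, against 61.1% of all named clusters other than receptors, with Cxcl15 at 19.76, Cxcl16 at 14.12 and Cxcl5 at 10.05. Hox genes had 3 of 33 above it, with Hoxa5 at 5.99 the brightest. Receptors for taste and trace amines, which like the olfactory genes serve in sensory cells, had 3 of 53 (5.66%) above it, close to the share that the 95th percentile sets for the olfactory and vomeronasal receptors.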
